A study of Mus musculus with 9 samples.

Results

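The 7 genes described here, Prss16, Psmb11, Ctsl, Ly75, Tbata, Cd83 and Cd40, are known from the cortical epithelium of the thymus, where most of them take part in making or displaying the self peptides that developing T cells are selected on. They were taken by gene symbol, with the transcript cluster of highest mean signal for each symbol, and all 7 were measured among the 19505 symbols and 22206 transcript clusters of the array. Cd83 had a second cluster and each of the other genes had 1. The study measured total RNA of whole fetal thymic lobes from C57BL/6 mice at e13.5, mid-gestation, on Affymetrix Clariom S arrays, with 3 arrays for each of 3 genotypes: wild type, Foxn1933/1089 and Tbx1neo2/neo2. All 3 groups share the strain, the age and the tissue, and no group received a treatment. The Foxn1 mutants carry 2 different alleles of Foxn1, the transcription factor that drives thymic epithelial development, and the Tbx1 mutants carry 2 copies of the neo2 allele of Tbx1, a transcription factor of the pharyngeal region from which the thymus arises. The labels do not say what these alleles change. Nor do they state whether each array had embryos of its own, so p-values measure the spread between these samples, which may be technical.

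Cortical epithelial cells present peptides that other cells make little of. The thymoproteasome, a proteasome whose catalytic subunit is Psmb11, cuts peptides for class I molecules and serves the selection of CD8 T cells, while the lysosomal protease cathepsin L (Ctsl) and the thymus-specific serine protease (Prss16) shape the class II peptides on which CD4 T cells are selected. Foxn1 is the master regulator of this epithelium, and Psmb11 is one of its direct targets.

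Psmb11, Ctsl, Ly75 and Tbata are shown by the 250 bases before their start sites because their signals were the lowest on the same 2 arrays, as was that of Prss16, and RefSeq (GRCm38.p6) gave a window for these 4. The letters GACGC, the core of the site that FOXN1 binds, were searched for on both strands, and a match is in capitals (GCGTC where it lies on the opposite strand). Each line reads 5' to 3' on the gene's own strand. Psmb11 lies at chr14:54625060-54625309 on the plus strand, Ctsl at chr13:64370521-64370770 on the minus strand, Ly75 at chr2:60383274-60383523 on the minus strand and Tbata at chr10:61171714-61171963 on the plus strand.
Psmb11: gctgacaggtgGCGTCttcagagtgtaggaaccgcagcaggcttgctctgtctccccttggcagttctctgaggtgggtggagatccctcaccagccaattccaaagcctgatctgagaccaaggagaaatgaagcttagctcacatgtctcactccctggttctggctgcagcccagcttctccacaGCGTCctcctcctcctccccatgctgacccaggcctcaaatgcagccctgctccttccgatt
Ctsl: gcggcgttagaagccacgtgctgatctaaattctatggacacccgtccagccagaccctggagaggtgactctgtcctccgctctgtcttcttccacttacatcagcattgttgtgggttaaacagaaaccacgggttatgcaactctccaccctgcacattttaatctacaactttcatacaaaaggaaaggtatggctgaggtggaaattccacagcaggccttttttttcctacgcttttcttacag
Ly75: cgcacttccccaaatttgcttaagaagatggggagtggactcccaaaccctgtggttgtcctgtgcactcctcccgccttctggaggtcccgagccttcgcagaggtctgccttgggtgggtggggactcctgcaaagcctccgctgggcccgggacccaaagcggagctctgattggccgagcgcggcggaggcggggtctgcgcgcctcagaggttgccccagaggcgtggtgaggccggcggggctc
Tbata: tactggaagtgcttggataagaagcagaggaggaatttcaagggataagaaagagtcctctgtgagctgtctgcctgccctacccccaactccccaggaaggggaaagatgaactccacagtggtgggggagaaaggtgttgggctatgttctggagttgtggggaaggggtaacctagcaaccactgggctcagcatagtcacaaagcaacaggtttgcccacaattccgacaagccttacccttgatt

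The Psmb11 window held 2 matches, at bases 12 to 16 and 189 to 193, which begin 239 and 62 bases before the start site. The windows of Ctsl, Ly75 and Tbata held 0 matches. Of 32851 RefSeq windows of the same length, 22.6% held at least 1 match and 5.86% held at least 2. A match describes letters only, and its absence says only that these letters are not in the window. Whether each window, that of Ctsl included, lies at the gene's main promoter was not checked. Prss16, Cd83 and Cd40 were among the genes with no window in the table used.

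Values are log2 signals as deposited. The negative control probes of the array give its background: their median lay between 4.27 and 4.94 on the 9 arrays and their 90th percentile between 7.03 and 8.51. The arrays labelled wild type replicate 1 and Foxn1 mutant replicate 2 stood apart from the other 7. On the first principal component, 42.6% of the variance, they scored -109 and -57.4 while the others lay between 7.69 and 38.3. Both had low signals for T lineage genes (list means of 3.93 and 4.04 against 5.74 to 7.66 on the others, with 9 of 11 genes under every other array on both) and for leukocyte genes (6.94 and 7.07 against 9.13 to 10.09, with 9 of 12). Epithelial genes were low on them in part (8.79 and 9.02 against 9.44 to 10.42, with 5 of 14). Of all clusters, 12.1% lay under every other array on both. Of other tissues, the neuronal list stood at 12.13 on wild type replicate 1 and at 5.37 to 6.02 elsewhere, and the heart muscle list at 6.37 on Foxn1 mutant replicate 2 and at 3.90 to 5.19 elsewhere. Mesenchyme list means were 9.89 to 10.61 in wild type, 10.64 to 11.83 in Foxn1 mutants and 10.74 to 11.10 in Tbx1 mutants. With all arrays, 11 of 11 measured genes were higher in Foxn1 mutants than wild type (median 0.87). In Tbx1 mutants 10 of 11 were (median 1.03). The medians over all clusters were 0.02 and 0.01. Leaving out the 2 arrays that stood apart gave 9 and 10. None passed the limma test after adjustment. The part of these tissues and of the 2 arrays in the results below was not tested. Differences of Prss16, Psmb11, Ctsl, Ly75 and Tbata are given with and without these 2 arrays, and those of other genes only in part. Foxn1 itself, the gene mutated in the Foxn1 mutants, read 7.78, 10.35 and 10.01 in wild type. Its Foxn1 mutant values were 9.02, 8.73 and 9.67, and its Tbx1 mutant values were 8.88, 10.04 and 9.70. The genotypes overlapped, and a signal level does not check alleles whose change is not stated.

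Among the proteases, Prss16 read 4.24, 14.43 and 13.98 on wild type replicates 1 to 3. Its Foxn1 mutant values were 14.10, 4.45 and 13.87, and its Tbx1 mutant values were 13.98, 14.28 and 14.05. This thymus-specific serine protease was far above the 90th percentile of the negative controls on 7 arrays, which lay within 0.55 of each other across all 3 genotypes, and at the level of the negative controls on the 2 arrays that stood apart. In bulk RNA, fewer cells of a type and less RNA per cell cannot be told apart. The genotype means were 10.88 ± 5.76 in wild type, 10.81 ± 5.51 in Foxn1 mutants and 14.10 ± 0.16 in Tbx1 mutants (SD, n = 3), and the order of these means rests on the 2 low arrays.

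Ctsl, the cathepsin that trims class II ligands in the cortex, read 9.84, 11.005 and 10.24 in wild type. Foxn1 mutant arrays gave 10.77, 8.59 and 10.60, and those of Tbx1 mutants 10.85, 9.997 and 10.19. All 9 values were above the 90th percentile of the negative controls. The genotypes overlapped, with means of 10.36 ± 0.59, 9.99 ± 1.21 and 10.35 ± 0.45 (SD, n = 3) in the order wild type, Foxn1 mutant and Tbx1 mutant. Wild type replicate 1 lay only 0.15 under the lowest of the other 7 arrays, while Foxn1 mutant replicate 2 lay 1.41 under it, so the arrays on which Prss16 was near background kept a Ctsl signal.

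Psmb11, the catalytic subunit that defines the thymoproteasome, read 3.40, 10.66 and 10.36 in wild type. Foxn1 mutant arrays gave 10.37, 3.36 and 10.49, and those of Tbx1 mutants 9.52, 10.44 and 10.43. The 2 low values were under the median negative control of their arrays and 6.13 and 6.16 under the lowest other array, which was Tbx1 mutant replicate 1. Genotype means were 8.14 ± 4.11, 8.07 ± 4.08 and 10.13 ± 0.53 (SD, n = 3) in wild type, Foxn1 mutants and Tbx1 mutants, and the arrays of the 3 genotypes overlapped.

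Ly75 encodes CD205, the endocytic lectin receptor used to mark cortical epithelial cells. It read 3.93, 9.02 and 7.87 in wild type, with 7.46, 4.60 and 7.84 for Foxn1 mutant arrays and 7.17, 7.41 and 7.75 for those of Tbx1 mutants. Wild type replicates 2 and 3 were the highest of the 9 arrays, and only 5 arrays passed the 90th percentile of their negative controls. The genotype means were 6.94 ± 2.67, 6.63 ± 1.77 and 7.44 ± 0.29 (SD, n = 3).

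Tbata, a stromal protein of thymus, brain and testis that binds the NEDD8-activating enzyme subunit Uba3, read 2.97, 5.85 and 6.46 in wild type. Foxn1 mutant arrays gave 5.23, 2.81 and 5.45, and those of Tbx1 mutants 4.81, 6.82 and 6.33. No array passed the 90th percentile of its negative controls, and 7 of 9 passed the median, so this was a dim gene whose values below about the control median have no firm order. Means were 5.09 ± 1.86, 4.50 ± 1.47 and 5.98 ± 1.05 (SD, n = 3) in wild type, Foxn1 mutants and Tbx1 mutants. Its partner Uba3 was bright and even, between 12.23 and 12.71 on the 9 arrays.

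The co-stimulatory genes were near background throughout. Cd83, which in cortical epithelium keeps class II molecules at the surface by opposing the ligase Marchf8, read 4.68, 5.17 and 4.64 in wild type, with 3.91, 4.78 and 4.97 for Foxn1 mutant arrays and 5.13, 4.80 and 5.11 for those of Tbx1 mutants. Cd40, the receptor whose ligand on T cells activates NF-kB in epithelium and antigen-presenting cells, read 3.66, 4.10 and 3.50 in wild type, with 2.99, 3.08 and 4.01 for Foxn1 mutant arrays and 3.62, 3.89 and 3.49 for those of Tbx1 mutants. Cd40 was under the median negative control on all 9 arrays, and Cd83 passed that median on 7 arrays and the 90th percentile on 0. At these levels a difference between genotypes was not detectable, which does not show that the genes were silent. The dendritic cell list, whose cells also carry Cd40, Cd83 and Ly75, had means between 3.82 and 4.12 on the 9 arrays.

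**Figure D1:**
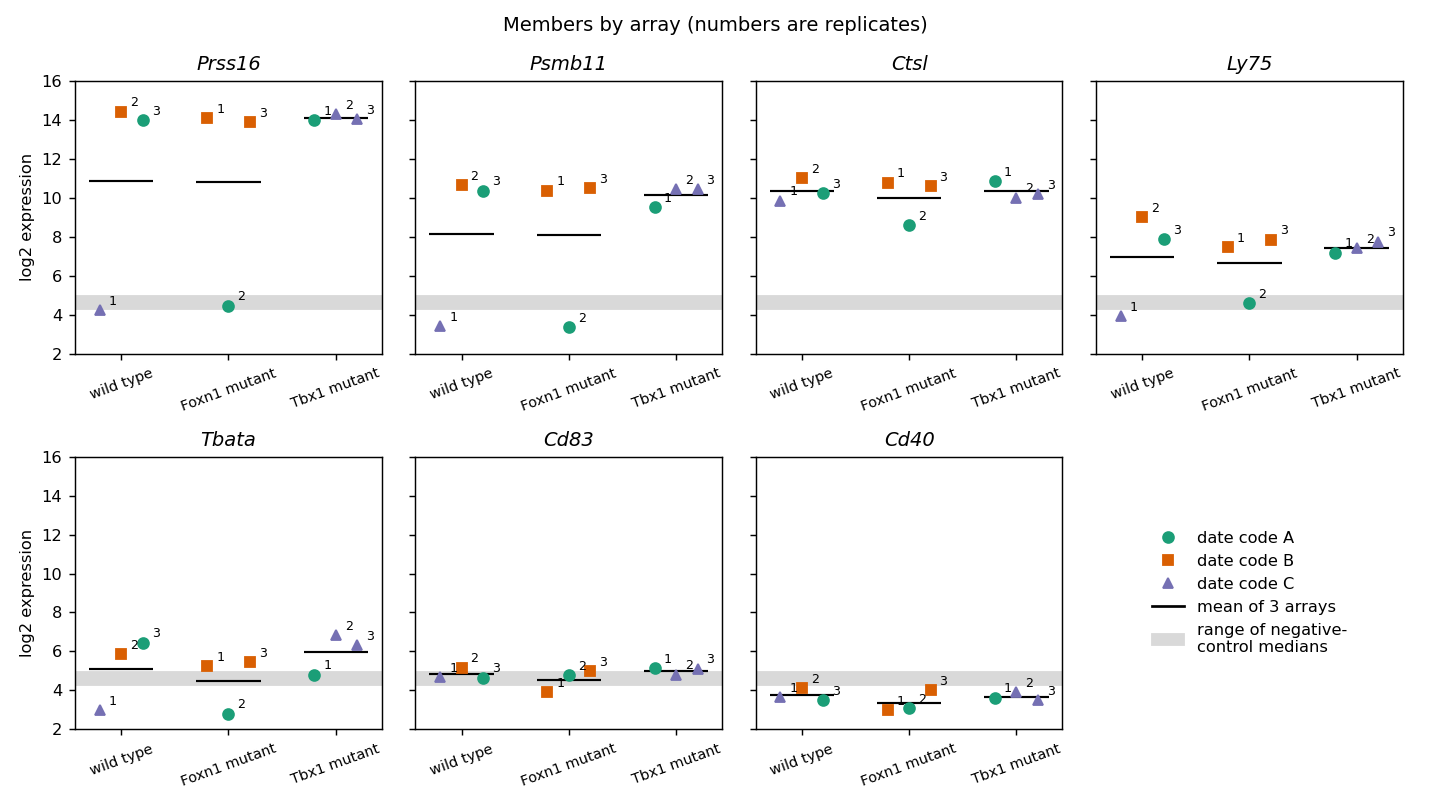
Log2 signal (vertical axis) of each of the 7 genes on the 9 arrays, by genotype; point shape and colour give the date code of the sample title, numbers the replicate, black bars the mean of 3 arrays and the grey band the range of the negative control medians (4.27 to 4.94). Prss16, Psmb11, Ly75 and Tbata lie in the band or under it for 1 wild type array (replicate 1) and 1 Foxn1 mutant array (replicate 2), Ctsl stays above it, and Cd83 and Cd40 lie in or near it on every array.

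The 2 arrays that stood apart were thus low for 5 of the 7 genes: Prss16, Psmb11, Ctsl, Ly75 and Tbata lay under every one of the other 7 arrays on both, as did 12.1% of all clusters. Signals were also set against those of other genes on the same array, as the array's difference from the median of the other 7. Prss16 relative to Foxn1 was -7.78 on wild type replicate 1 and -8.53 on Foxn1 mutant replicate 2, against -0.27 to 0.85 on the others. Relative to Epcam, a surface protein of epithelial cells whose own signal was 8.33 and 8.82 on these arrays and 7.97 to 8.83 on the others, Prss16 was -9.69 and -9.96, against -0.21 to 0.48. Psmb11 relative to Foxn1 was -5.02 and -6.01, against -0.33 to 0.72. Both genes' signals there were under the control median, so these values are limited by background and are not exact distances. On wild type replicate 1, Epcam (8.33) and Foxn1 (7.78) were themselves under the 90th percentile of the negative controls, 8.51. Epcam was not low beside the other arrays, but 5 of the 14 epithelial genes (Cdh1, Krt8, Krt18, Krt5 and Trp63) lay under all other 7 arrays on both. The keratins Krt8 and Krt5 read 12.12 and 8.68 on wild type replicate 1 and 12.37 and 8.50 on Foxn1 mutant replicate 2, against 15.62 to 15.97 and 12.87 to 14.14 on the others. Ly75 relative to Foxn1 was -2.02 and -2.31, against -0.81 to 0.50. Its signals on the 2 low arrays were under the control median as well, so these values too are limited by background. Tbata relative to Foxn1 was -1.02 and -2.14, against -0.71 to 0.57, and its signal on these arrays was under the control median. Ctsl went both ways relative to Foxn1, 1.41 on wild type replicate 1 and -0.80 on Foxn1 mutant replicate 2, against -0.70 to 1.31. Because the 2 arrays bear different genotypes, none of these values describes a genotype.

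In the Foxn1 mutants against wild type, the comparison that asks how these alleles affect the epithelial programme, none of the 7 genes passed the test. The limma fit to all 9 arrays called 0 of 7 at a Benjamini-Hochberg adjusted p under 0.05 and 0 of 22206 clusters, 0% of them. At an unadjusted p under 0.05 it reached 0 of 7 and 4.04% of clusters. The difference was -0.07 ± 3.00 (SE) for Prss16, -0.06 ± 2.19 for Psmb11, -0.38 ± 0.56 for Ctsl, -0.31 ± 1.22 for Ly75 and -0.60 ± 0.99 for Tbata, each with an adjusted p of 1.00. Cd83 differed by -0.28 ± 0.30 and Cd40 by -0.39 ± 0.30. All 7 differences were negative, as were those of 10573 of 22206 clusters, and Cd83 and Cd40 among the 7 lay near background. The median of the 7 was -0.31 beside 0.02 over all clusters. No gene had arrays that did not overlap (3.43% of clusters were lower and 4.86% higher without overlap). Each group held 1 of the low arrays: Prss16 differed by -3.40 without wild type replicate 1 and by 3.10 without Foxn1 mutant replicate 2.

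Without both low arrays, 2 Foxn1 mutant arrays stood against 2 of wild type. Prss16 differed by -0.22 ± 0.25 (SE, 95% interval -0.78 to 0.35) and Psmb11 by -0.08 ± 0.34 (-0.84 to 0.69), in a fit that leaves out the mutant array on which both were at background. With all 9 arrays the intervals were -6.80 to 6.65 and -4.98 to 4.86. Ctsl differed by 0.06 ± 0.35. The larger values were those of Ly75, -0.80 ± 0.38 (-1.67 to 0.08, limma adjusted p = 0.870), and Tbata, -0.81 ± 0.57 (-2.11 to 0.49, limma adjusted p = 0.882). For these 2 of 7 genes the arrays did not overlap, as for 17.1% of all clusters in that direction, so the count has little weight with 2 arrays a side. Foxn1 itself differed by -0.84 ± 0.39 (limma adjusted p = 0.870), also without overlap. At an unadjusted p under 0.05, 0 of 7 genes and 5.62% of clusters were reached. By date code, Prss16 differed by -9.53 within code A, which holds the low Foxn1 mutant array, and by -0.44 within code B. Ly75 differed by -3.28 and -1.37, and Tbata by -3.65 and -0.51, within codes A and B. With date code as a fixed block over all 9 arrays the differences were larger, -3.36 ± 2.01 for Prss16, -2.34 ± 1.55 for Psmb11, -1.68 ± 0.78 for Ly75, -1.27 ± 0.96 for Tbata and -0.99 ± 0.33 for Ctsl. Only Ctsl then reached an unadjusted p under 0.05 (limma adjusted p = 0.814), 1 of 7 genes beside 5.73% of clusters.

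In the Tbx1 mutants against wild type, which asks the same of a gene acting earlier in the pharyngeal region, the calls were again 0 of 7, beside 3 clusters of 22206 (0.0135%). Unadjusted, they were 0 of 7 beside 3.79%. With all 9 arrays Prss16 differed by 3.22 ± 3.00 (SE), Psmb11 by 1.99 ± 2.19, Tbata by 0.89 ± 0.99, Ly75 by 0.50 ± 1.22 and Ctsl by -0.01 ± 0.56, with a limma adjusted p of 1.00 for each. Cd83 differed by 0.19 ± 0.30 and Cd40 by -0.09 ± 0.30. The positive values of these genes other than Cd83 rest on 1 array. Without wild type replicate 1, Prss16 differed by -0.10, Psmb11 by -0.38, Tbata by -0.17 and Ly75 by -1.003. The median over the 7 genes went from 0.50 with all arrays to -0.17 without the low arrays, beside 0.01 and -0.01 over all clusters. No gene had arrays that did not overlap, against 5.18% of clusters higher and 4.27% lower.

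Once the low arrays were left out, Ly75 had the largest difference of the 7 genes between Tbx1 mutants and wild type. The 3 Tbx1 mutant arrays (7.17, 7.41 and 7.75) all lay under wild type replicates 2 and 3 (9.02 and 7.87), a difference of -1.003 ± 0.35 (SE, 95% interval -1.80 to -0.21), or 2.00-fold lower. The Tbx1 mutant values 7.17 and 7.41 were under the 90th percentile of their arrays' negative controls (7.39 and 7.88), so background may limit this size. The gap between the groups, 7.75 against 7.87, was narrow. It had an unadjusted limma p of 0.0196 and an adjusted p of 0.499, and so did not pass. The calls on these 7 arrays were 0 of 7 genes, beside 0.00901% of clusters. Of the 7 genes 1 reached an unadjusted p under 0.05, beside 8.07% of clusters, and 1 was lower without overlap, beside 13.6%. Prss16 differed by -0.10 ± 0.23 (-0.62 to 0.42), Psmb11 by -0.38 ± 0.31 (-1.08 to 0.32), Ctsl by -0.27 ± 0.32 and Tbata by -0.17 ± 0.52. Within date code A, 1 array against 1, Prss16 differed by -0.00105, Psmb11 by -0.84, Ly75 by -0.70 and Tbata by -1.65. Within code C, which holds the low wild type array, the same genes differed by 9.93, 7.04, 3.65 and 3.60. The fixed block over all 9 arrays gave 6.50 ± 2.01 for Prss16 (limma adjusted p = 0.482), 4.27 ± 1.55 for Psmb11 (limma adjusted p = 0.512) and 1.88 ± 0.78 for Ly75 (limma adjusted p = 0.555). These were 3 of 7 genes at an unadjusted p under 0.05 beside 8.71% of clusters, in a fit that holds the low array. The 3 called clusters were the parathyroid hormone gene Pth (-6.62 ± 0.58, limma adjusted p = 0.00892), the secretory granule gene Chga (-7.97 ± 0.69, limma adjusted p = 0.00892) and the tight junction gene Cldn7 of the epithelium list (-2.14 ± 0.23, limma adjusted p = 0.0354), with 0 calls without wild type replicate 3 or without Tbx1 mutant replicate 2 or 3. Of 15 marker lists, these were the only genes called in any of the 3 comparisons on all 9 arrays. The parathyroid list, of the organ that shares a pouch with the thymus, had means of 4.95 to 5.28 on the Tbx1 mutant arrays and 8.30 to 11.23 on the others (4 of 5 genes measured), and its part in the values here was not tested.

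The Foxn1 mutants were also set against the Tbx1 mutants. The calls were 0 of 7 genes and 0% of clusters, and unadjusted 0 of 7 beside 2.98%. Differences with all arrays were -3.30 ± 3.00 (SE) for Prss16, -2.06 ± 2.19 for Psmb11, -1.49 ± 0.99 for Tbata, -0.81 ± 1.22 for Ly75, -0.46 ± 0.30 for Cd83, -0.36 ± 0.56 for Ctsl and -0.31 ± 0.30 for Cd40. All were negative, as were those of 10812 of 22206 clusters, and Cd83 and Cd40 lay near background. But without Foxn1 mutant replicate 2 Prss16 differed by -0.12, and Psmb11, Ctsl and Ly75 turned positive, at 0.30, 0.34 and 0.20. Tbata remained at -0.64 ± 0.52 and Cd83 at -0.58 ± 0.33 without the low arrays. The fit without them again called 0 of 7 genes, beside 0.00901% of clusters, and 0 of 7 unadjusted, beside 8.53%. With date code as a fixed block over all 9 arrays the differences were -9.86 ± 2.46 for Prss16, -6.60 ± 1.90 for Psmb11, -3.56 ± 0.95 for Ly75, -2.84 ± 1.17 for Tbata and -1.59 ± 0.41 for Ctsl. These 5 of 7 genes reached an unadjusted p under 0.05, beside 9.02% of clusters, and the lowest limma adjusted p was 0.458. All 5 are the genes that were low on both arrays that stood apart, and code B holds no Tbx1 mutant array. In the fit to all 9 arrays with no block, no gene lacked overlap, against 5% of clusters higher and 3.91% lower, and 3 against 3 arrays cannot give an exact permutation p under 0.1 for any single gene.

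**Figure D2:**
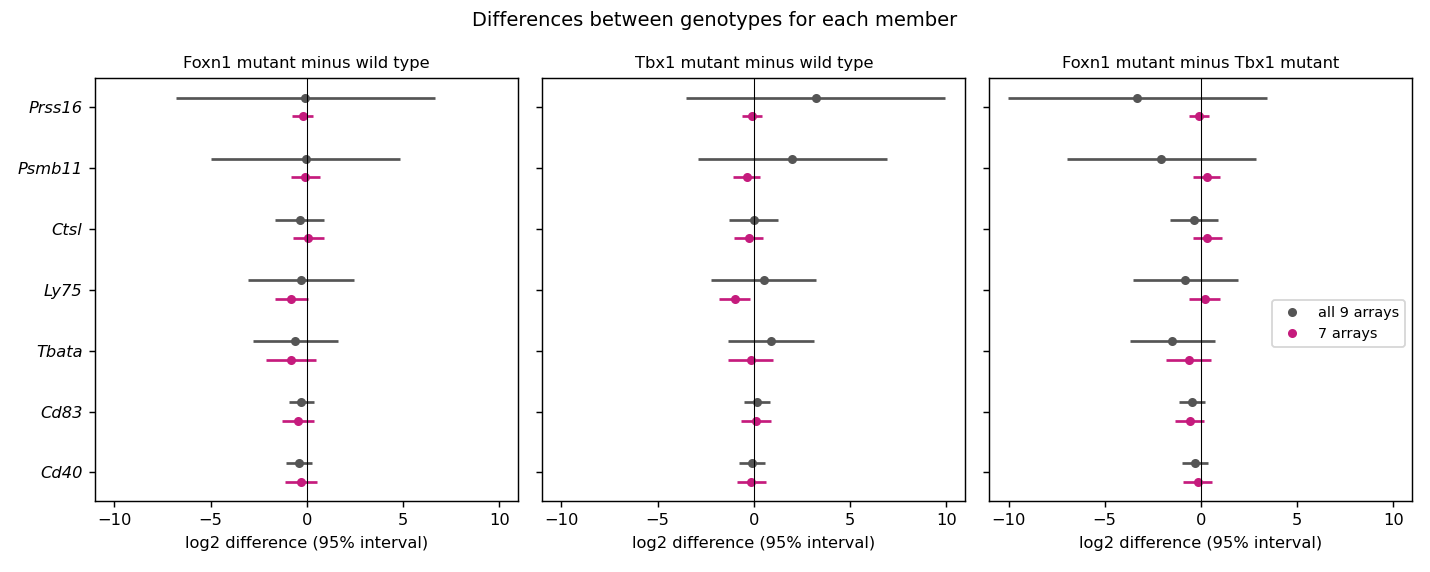
Log2 difference (horizontal axis) of each gene in the 3 comparisons, with its 95% interval from limma, for all 9 arrays (grey) and for the 7 arrays left without wild type replicate 1 and Foxn1 mutant replicate 2 (magenta). The intervals of Prss16 and Psmb11 narrow most when both arrays are left out, and the Ly75 interval in the Tbx1 mutants then runs from -1.80 to -0.21.

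Other genes of the same pathways were counted in 9 lists. In all 3 comparisons, with all arrays and without both low arrays, 0 genes of every list passed the limma test after adjustment. The proteasome list (20 of 21 genes measured) is the setting of Psmb11. Psmb5, the nearest relative of Psmb11 in the list, was the gene not measured. The other constitutive catalytic subunits, Psmb6 and Psmb7, stayed bright on the arrays where Psmb11 was near background. Psmb6 read 13.45 and 13.28 there, and Psmb7 13.16 and 12.92. The interferon-inducible subunit Psmb8 read 4.61 and 5.26 there, against 7.62 to 9.78 on the others. In all, 18 of 20 genes of the list lay under every other array on both, beside 12.1% of all clusters. The exceptions were Psmb6 and Psmb7. With all 9 arrays, the Tbx1 mutants had 14 genes higher and 6 lower than wild type, with a median of 0.11, and Psmb8 differed by 0.31 ± 1.38. Without the low arrays the direction turned: differences from wild type were negative for 19 of 20 genes, with a median of -0.21 beside -0.01 over all clusters, and the 3 of lowest p were Psmb8 at -1.25 ± 0.36 (limma adjusted p = 0.426), Psmb9 at -1.19 ± 0.36 (0.432) and Psmb10 at -0.73 ± 0.23 (0.465). These 3 replace the constitutive catalytic subunits in the immunoproteasome, which leukocytes carry. The leukocyte list mean was 9.13 to 9.67 on the Tbx1 mutant arrays and 9.99 and 10.09 on wild type replicates 2 and 3. The part of leukocytes in the values of these 3 genes was not tested. Against the Foxn1 mutants Psmb9 differed most, by 1.58 ± 0.36 (limma adjusted p = 0.357), higher in the Foxn1 mutants.

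The lysosomal list (19 of 20 measured) holds Ctsl's relatives and Dpp7, a serine protease of the same family as Prss16. On the arrays that stood apart, 2 of 19 genes (10.5%) were under all other arrays on both, beside 12.1% of all clusters. Another 6 of 19 were above all others on both, beside 1738 of 22206 clusters. Among these 6 was the broadly expressed cathepsin Ctsb, at 14.63 and 14.87 against 13.67 to 14.00. Dpp7 read 3.27 to 5.20, near the control medians, so no size is given for it. With all 9 arrays, the asparaginyl endopeptidase Lgmn differed by -0.997 ± 0.35 in the Tbx1 mutants against wild type (limma adjusted p = 1.00). Its highest value, 15.64, was on wild type replicate 1. Without the low arrays, the lowest p in this comparison was that of Ctsc, at -1.18 ± 0.36 (limma adjusted p = 0.433). Ctss, the cathepsin of antigen-presenting cells, ran from 4.79 to 6.24. With all 9 arrays, the Foxn1 mutants had 11 genes of the list higher and 8 lower than wild type with a median of 0.15. The Tbx1 mutants had 9 higher and 10 lower with a median of -0.06. Without the low arrays these medians were 0.03 and -0.12. Macroautophagy, which feeds class II loading in cortical epithelium, gave no calls among 21 genes, and its list mean was 8.46 to 8.78 on the 9 arrays. Its lowest p in the Tbx1 mutants against wild type was that of Gabarapl2, at -0.87 ± 0.25 with all arrays (limma adjusted p = 1.00). Without the low arrays Gabarapl2 differed by -0.72 ± 0.25 (limma adjusted p = 0.495).

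The class II and Cd83 list (10 of 13 measured) was low on the arrays that stood apart, with means of 5.24 and 5.57 against 6.36 to 7.09. With all 9 arrays, 6 of 10 genes were higher in the Tbx1 mutants than in wild type (median 0.02) and 4 of 10 in the Foxn1 mutants (median -0.05). Without the low arrays the Tbx1 mutants had negative differences for 9 of 10 genes, with a median of -0.54, led by the peptide exchange subunit H2-DMa at -1.16 ± 0.28 (limma adjusted p = 0.375). The Foxn1 mutants had 9 of 10 negative too, with a median of -0.19. Both comparisons used the same wild type arrays. Of the Cd40 and NF-kB list (14 of 16 measured), 7 of 14 genes lay under every other array on both low arrays, beside 12.1% of all clusters. With all arrays, the gene of lowest p in each comparison was dim: Traf1 ran from 3.35 to 4.86 and Relb from 3.65 to 5.00. Cd40lg, the ligand, ran from 3.33 to 4.404. These 3 lay near or under the control medians, so no sizes are given for them. Without the low arrays, the lowest p in the Tbx1 mutants against wild type was that of the brighter Traf6, at -0.82 ± 0.28 (limma adjusted p = 0.494). In the Foxn1 against the Tbx1 mutants it was that of Rel, at 0.65 ± 0.21 (limma adjusted p = 0.468). Of the neddylation list around Tbata (14 of 15 measured) the lowest p in the Foxn1 mutants against wild type was that of the protease Senp8 with all arrays, -0.36 ± 0.20 (limma adjusted p = 1.00). Without the low arrays it was that of Rnf7, 0.51 ± 0.21 (limma adjusted p = 0.870). The relatives of Ly75, the mannose receptors Mrc1 and Mrc2, ran from 7.76 to 9.65 and from 7.92 to 9.64, with their highest values on Foxn1 mutant replicate 2, where Ly75 was near background. The 5 measured genes of the 6 other C-type lectins had list means of 3.50 to 4.07.

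Of the cortical epithelial companions (17 of 20 measured), 8 lay under all other arrays on both low arrays and 2 above. Over all clusters, 12.1% lay under and 1738 of 22206 above. Dll4, the Notch ligand that commits progenitors to the T lineage, read 6.78, 11.81 and 12.06 in wild type, with 11.10, 8.28 and 11.33 for Foxn1 mutant arrays and 11.28, 11.43 and 11.04 for those of Tbx1 mutants. The means were 10.22 ± 2.98, 10.24 ± 1.70 and 11.25 ± 0.19 (SD, n = 3), and with all arrays Dll4 differed from wild type by 0.02 ± 1.30 in the Foxn1 mutants and by 1.04 ± 1.30 in the Tbx1 mutants. Without the low arrays the differences were negative, by -0.72 ± 0.24 in the Foxn1 mutants (limma adjusted p = 0.870) and by -0.68 ± 0.22 in the Tbx1 mutants (limma adjusted p = 0.464), and neither passed. Both differences rest on the same 2 wild type arrays, and Dll4 was picked after its values were seen. With all arrays the gene of lowest p in the Foxn1 mutants was Scara5, whose 9 values, 3.22 to 4.16, were all under the control median, so its difference has no measured size. With all arrays, the chemokines Ccl25 and Cxcl12, which draw progenitors to the thymus, were 0.75 ± 0.28 and 1.14 ± 0.46 higher in the Tbx1 mutants than in wild type (limma adjusted p = 1.00). Ccl25 passed the 90th percentile of the negative controls on 0 of 9 arrays, so its size is uncertain. Cxcl12 overlapped between these genotypes, and without the low arrays it differed by 1.21 ± 0.47 (limma adjusted p = 0.560).

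**Figure D3:**
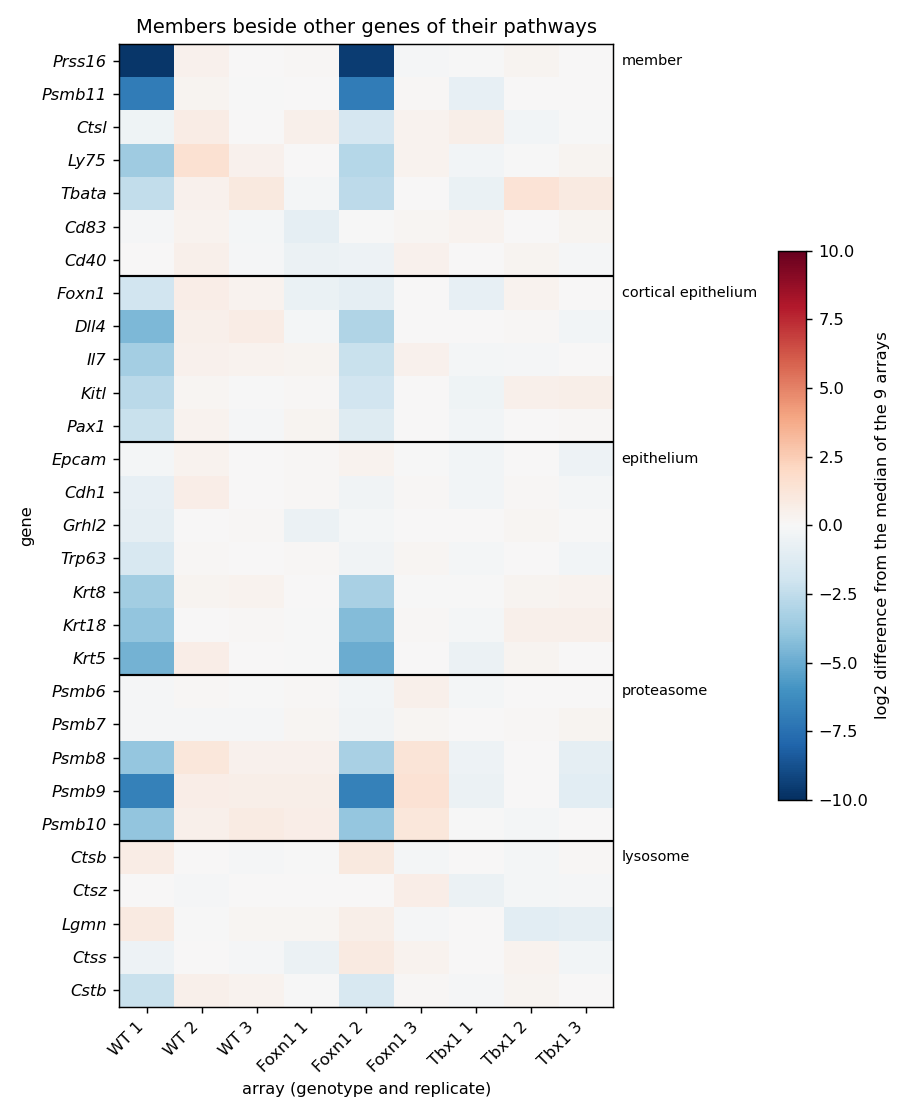
Log2 difference of each gene from its median over the 9 arrays (colour, from -10 to 10) for the 7 genes and for genes of the cortical epithelium, epithelium, proteasome and lysosome lists picked for display after their values were seen; columns are arrays, with WT for wild type. Prss16, Psmb11, Ly75 and Tbata share their 2 blue columns, wild type replicate 1 and Foxn1 mutant replicate 2, with Dll4, Krt8 and Psmb8, while Epcam, Psmb6, Psmb7 and Ctsb are not low on both.

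The profiles most like those of the members were sought among clusters with 1 symbol, by the root mean square difference over the 9 arrays after each profile was centred on its own mean. This was done for the 4 genes whose SD over the arrays was above 1. The nearest to Prss16 were Gzma at 0.90, Tespa1 at 1.18 and Cd3g at 1.18, genes known from lymphocytes. Nearest to Psmb11 were Atp8b4 at 0.46, Parvg at 0.52 and Ifitm1 at 0.52. The nearest to Ly75 were Lcp1, a leukocyte actin-bundling protein, at 0.30, Kcnn4 at 0.33 and the class II chain H2-Aa at 0.41. Those nearest to Tbata were the desmosomal protein Pkp1 at 0.38, Ppp1r27 at 0.38 and Lrrtm3 at 0.41. All 4 members and each of their nearest clusters had their lowest values on the 2 low arrays, and the distances were not recomputed without them.

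**Figure D4:**
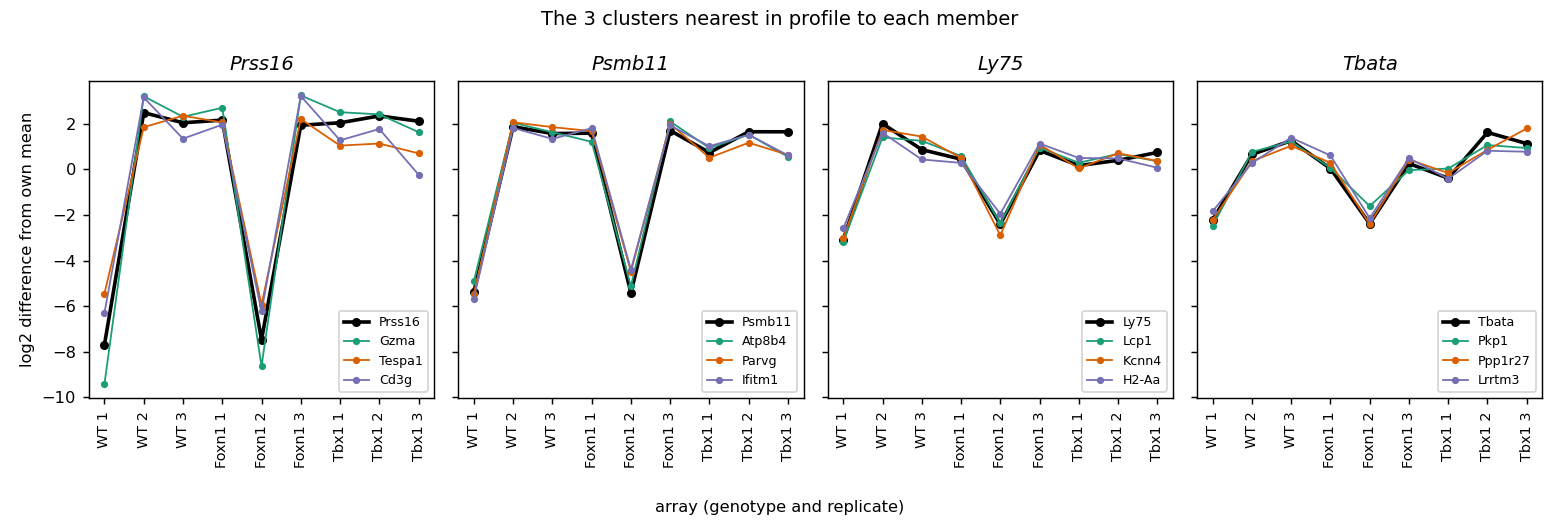
Centred log2 profiles over the 9 arrays (vertical axis, difference from the gene's own mean; WT is wild type) of Prss16, Psmb11, Ly75 and Tbata in black and of the 3 clusters nearest to each in colour. All 4 panels drop at WT 1 and Foxn1 2 and are flatter on the other 7 arrays.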

How the data were processed

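Total RNA of fetal thymic lobes was labelled with biotin and hybridised to Clariom S mouse arrays, 1 per sample, per the labels' protocols. The deposited log2 values were used as given. Their range, 1.47 to 19.92, is one of log2 signals, and no software, normalization or genome build is named for them. Of 28846 features, 6640 controls were left out, leaving 22206 clusters, of which 19572 had 1 symbol and 2634 had none or more than 1. A gene was counted as measured if a cluster carried its symbol alone. The number of arrays limits the precision.

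Genotypes follow the labels. Titles carry 3 date codes of unstated meaning: A (wild type 3, Foxn1 mutant 2, Tbx1 mutant 1), B (wild type 2, Foxn1 mutants 1 and 3) and C (wild type 1, Tbx1 mutants 2 and 3). The model, with a mean per genotype, used limma 3.58.1 (R 4.3.3, package data.table version 1.17.8), all 9 arrays and two-sided moderated tests and Benjamini-Hochberg adjustment over all clusters. The script was tested on simulated data. Tables and figures used Python 3.11.15, pandas 2.3.3, numpy 2.4.6 and matplotlib 3.10.9. Alternatives changed the scaling, filter, moderation, array weights, date code block and arrays used.

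The 7 members, 9 pathway lists and 15 marker lists were chosen with earlier results of these data known. Named besides the members are Foxn1, Epcam, the members' relatives, list genes that passed the test or else up to 3 of lowest unadjusted p per list and comparison, and the 3 nearest profiles. Dll4 arrays, Psmb6, Psmb7, Krt5 and Krt8 were chosen after their values were seen.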

Additional observations from a re-analysis of the deposited data

How the results depend on the processing

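In all 414 refitted values of the 7 genes none passed the limma test at an adjusted p under 0.05, and the lowest adjusted p was 0.458. Direction held less well: it turned in 24 values with 1 array left out and in 16 of 225 others, and the cause was not tested beyond the arrays left out. Without both low arrays the Foxn1 mutants minus wild type turned for Ctsl (0.064), the Tbx1 mutants minus wild type for Prss16 (-0.10), Psmb11 (-0.38), Ly75 (-1.003) and Tbata (-0.17), and the Foxn1 minus Tbx1 mutants for Psmb11 (0.30), Ctsl (0.34) and Ly75 (0.20). Ctsl in the Tbx1 mutants minus wild type, -0.01 at first, was 0.0059 with quantile normalization, 0.044 with median centring, 0.018 scaled to the epithelium list, 0.60 with date code as a fixed block, 0.048 as a random block, and 0.61 and 0.25 within codes A and C. Cd40 there was 0.047 with the fixed block and 0.12 and 0.030 within codes A and C. Array weights turned Ly75 in the Tbx1 mutants (-0.47) and Ctsl in the Foxn1 minus Tbx1 mutants (0.10). Within code A, Cd83 turned in the Foxn1 mutants minus wild type (0.14), and Prss16 (-0.00105), Psmb11 (-0.84), Ly75 (-0.70) and Tbata (-1.65) turned in the Tbx1 mutants minus wild type.

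With each array left out in turn, the Foxn1 mutants minus wild type ran from -3.40 to 3.10 for Prss16, -2.43 to 2.29 for Psmb11, -0.77 to 0.32 for Ctsl, -1.82 to 0.73 for Ly75, -1.66 to 0.25 for Tbata and -0.49 to 0.045 for Cd83. The Tbx1 mutants minus wild type ran from -0.10 to 4.99, -0.38 to 3.25, -0.27 to 0.31, -1.003 to 1.54 and -0.17 to 1.57 for the first 5 of these, and from -0.22 to 0.086 for Cd40. The Foxn1 minus Tbx1 mutants ran from -3.26 to 0.30 for Psmb11, -0.75 to 0.34 for Ctsl and -1.42 to 0.20 for Ly75. Over all clusters, the 3 called in the Tbx1 mutants minus wild type became 17 with array weights, 20 without wild type replicate 2, 5 without Tbx1 mutant replicate 1, 1 with the fixed block and 0 with only the arrays of both genotypes or without wild type replicate 3 or Tbx1 mutant replicates 2 or 3. The Foxn1 mutants minus wild type had 0 called clusters, but 1 with only the arrays of both genotypes and 3 without Tbx1 mutant replicate 1. The Foxn1 minus Tbx1 mutants had 0, but 4 with array weights, 3 without wild type replicate 1 and 2 with only the arrays of both genotypes, scaled to the epithelium list, without wild type replicate 2 or without both low arrays. No scaling moved the median of all clusters by over 0.1. Leaving out the dimmer clusters, under a mean of 5.15, removes Cd83 and Cd40, which lie near background. No fit paired by sample number was possible because the genotypes compared share at most 1 of the numbers in the sample titles. Titles of wild type and Foxn1 mutant arrays begin with Foxn# and those of Tbx1 mutant arrays with Tbx#, with no meaning stated. In both comparisons that hold Tbx1 mutants, genotype therefore cannot be told apart from this title series. Date code was the block fitted, and as a fixed block it moved the differences of Prss16, Psmb11, Ctsl, Ly75 and Tbata by over 1.5 times in all 3 comparisons, in which 1, 3 and 5 of the 7 genes reached an unadjusted p under 0.05 against 0 without it.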

Other observations

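The second Cd83 cluster, whose identifier on the array marks it as unmapped, read 3.24, 4.61 and 5.14 in wild type, with 4.91, 5.07 and 4.89 for Foxn1 mutant arrays and 4.80, 5.23 and 4.79 for those of Tbx1 mutants. Its lowest value was on wild type replicate 1, where the Cd83 cluster described above read 4.68, so the 2 clusters did not share their low arrays.

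Among the 7 arrays other than those that stood apart, Tbx1 mutant replicate 1 had the lowest Psmb11 (9.52), Ly75 (7.17), Tbata (4.81) and Foxn1 (8.88) signals, but not the lowest Prss16 (13.98, against 13.87 on Foxn1 mutant replicate 3). Relative to Foxn1 on the same array its Psmb11, Ly75 and Tbata values were 0.00, 0.12 and -0.29 from the median of the 7, within the range of the others.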
